A study of Mus musculus with 36 samples.

Results

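The 8 genes described here, Pgr, Greb1, Ctsd, Xbp1, Myb, Stc2, Cited1 and Tff1, are targets of estrogen known from the breast and the uterus, and they are 8 of the 18194 gene symbols with a probe set of their own on the array. A probe set was taken as a member where it was annotated to exactly 1 of these symbols, and where a gene had several, the probe set with the highest mean signal over all 36 arrays stood for it. The rule names the genes and uses no measured change, although earlier results of these data were known when they were chosen. RNA was captured by laser from the peri-ductal stroma and the ductal epithelium of the fourth inguinal mammary gland of female C57BL/6 fetuses at E19, then amplified and hybridized to Affymetrix mouse arrays. The dams carried pumps that gave 250 ng/kg of bisphenol A (BPA) per day, 10 ng/kg of ethinyl estradiol (EE2) per day, or the vehicle, 50% DMSO, from E8 onwards. The fetuses were ER-alpha knockout null, here ERα(−/−), or wild type, here ERα(+/+), and came from crosses of heterozygous parents, so every dam carried the mutant allele. Each of the 12 groups, formed by the 2 compartments, the 2 genotypes and the 3 exposures, held 3 arrays from 3 litters, and both compartments of a replicate came from the same gland.

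Estrogen receptor α, encoded by Esr1, is a transcription factor that binds its ligand and then binds DNA at estrogen response elements, or joins other factors already bound there, and changes the transcription of nearby genes. BPA, a bisphenol used in plastics, binds the receptor far more weakly than EE2, the steroid of contraceptive pills. Among the targets, Pgr encodes the progesterone receptor, the classical sign of estrogen action in the uterus and the breast. Greb1 encodes a coregulator of the receptor, Myb a transcription factor of proliferating progenitor cells, Xbp1 a transcription factor of the unfolded protein response, and Cited1 a transcriptional coactivator that joins the receptor. Ctsd encodes cathepsin D, an aspartic protease of the lysosome, Stc2 the secreted glycoprotein stanniocalcin 2, and Tff1 a secreted trefoil peptide (pS2) that human breast cancer cells make under estrogen. Most of this knowledge comes from adult tissue and from human breast cancer cells rather than from the fetal gland.

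The promoters of 4 members are shown because the comparisons that follow turn on these genes, and they were chosen after their values were seen. Pgr and Myb had the lowest stromal against epithelial signals, and Ctsd and Xbp1 had the smallest p-values among the members in exposed epithelium. Each sequence is from RefSeq on GRCm38.p6 and runs 5′ to 3′ on the gene's strand, from 250 bases before to 50 bases after the annotated start. Capitals mark GGTCA or TGACC, the arms of the palindromic estrogen response element GGTCANNNTGACC, and GGGCGG or CCGCCC, the GC box that Sp1 binds.
Pgr, chr9:8899583-8899882 (+): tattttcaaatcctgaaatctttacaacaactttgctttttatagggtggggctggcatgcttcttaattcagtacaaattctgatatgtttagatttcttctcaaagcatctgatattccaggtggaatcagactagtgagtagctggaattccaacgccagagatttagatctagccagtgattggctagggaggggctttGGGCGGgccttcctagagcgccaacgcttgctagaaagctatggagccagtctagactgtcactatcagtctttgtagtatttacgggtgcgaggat
Myb, chr10:21160935-21161234 (−): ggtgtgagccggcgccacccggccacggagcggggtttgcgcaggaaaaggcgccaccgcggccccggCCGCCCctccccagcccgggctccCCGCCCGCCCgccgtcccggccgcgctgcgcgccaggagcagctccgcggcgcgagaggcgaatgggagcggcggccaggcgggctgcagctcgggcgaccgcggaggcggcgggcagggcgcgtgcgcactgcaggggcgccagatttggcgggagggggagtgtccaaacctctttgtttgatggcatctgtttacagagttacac
Ctsd, chr7:142387778-142388077 (−): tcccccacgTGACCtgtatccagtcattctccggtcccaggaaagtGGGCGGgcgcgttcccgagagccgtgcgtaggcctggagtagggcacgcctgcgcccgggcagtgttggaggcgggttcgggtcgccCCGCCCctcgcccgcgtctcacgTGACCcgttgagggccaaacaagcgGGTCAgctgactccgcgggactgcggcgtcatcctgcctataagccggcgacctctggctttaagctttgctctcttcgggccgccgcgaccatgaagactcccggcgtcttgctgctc
Xbp1, chr11:5520391-5520690 (+): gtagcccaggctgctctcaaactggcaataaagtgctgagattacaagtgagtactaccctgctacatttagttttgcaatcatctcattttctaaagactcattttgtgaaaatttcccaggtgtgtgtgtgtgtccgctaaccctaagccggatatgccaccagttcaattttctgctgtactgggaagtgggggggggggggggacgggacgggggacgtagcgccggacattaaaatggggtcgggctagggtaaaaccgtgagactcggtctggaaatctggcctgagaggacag
With positions counted so that the start is base 1, the Ctsd promoter held 3 arms of the element, at −241, −94 and −69, and GC boxes at −204 and −117. The Pgr promoter held no arm and 1 GC box at −47, the Myb promoter held no arm and 3 GC boxes at −182, −158 and −154, the last 2 of which overlap, and the Xbp1 promoter held neither. The Pgr sequence lies wholly inside the annotated span of the gene, which begins at chr9:8898900, so bases before that span were not searched. Promoter sequences were at hand for 7 of the 8 genes, with 10 starts in all, and the Tff1 promoter is not shown. An arm on either strand was found in 6 of these 10 entries, in Greb1, Ctsd, Stc2 and Cited1, beside 40.5% of all 32851 promoters of the same length. The full palindrome was in 0 of the 10 entries, beside 0.0700% of all promoters, and the GC box in 4, beside 35.7%. A match of letters is a description and not a binding site.

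In the RefSeq annotation of GRCm38.p6, Pgr lies at chr9:8898900-8968611, Greb1 at chr12:16670615-16801394, Ctsd at chr7:142375910-142387827 and Xbp1 at chr11:5520641-5525993. Myb lies at chr10:21124930-21160984, Stc2 at chr11:31359441-31370061, Cited1 at chrX:102247378-102252181 and Tff1 at chr17:31161395-31165060. Ctsd, Cited1 and Tff1 had 1 probe set each, Pgr, Myb and Stc2 had 3, and Greb1 and Xbp1 had 4. Myb was read by a probe set whose suffix, x_at, marks probes that may also match other sequences. Whether probes of any set overlap a deleted or shared sequence could not be checked from the files.

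Intensities were deposited on a linear scale with no common level across arrays, and precision is limited by the 3 arrays of a group. Array medians lay between 10.9 and 66.8, with a midpoint of 33.75 over the 36 arrays. In the epithelium this array median averaged 51.4 ± 12.7 after BPA, 40.7 ± 14.7 after EE2 and 29.3 ± 12 after vehicle (SD, n = 6 each). Captured tissue was richer in its own markers but also carried those of the other compartment. Summed epithelial markers averaged 14850 in epithelium and 1713 in stroma, fibroblast markers 19174 and 41146, and adipocyte markers 14606 and 26702 (n = 18 each). Schwann cell markers averaged 3298 in epithelium and 548 in stroma. Of the markers listed for each cell type, 11 of 12 epithelial ones were lower in stroma than in epithelium, and 9 of 9 for fibroblasts, 5 of 5 for adipocytes, 7 of 7 for endothelium and 8 of 9 for leukocytes were higher, by limma at an adjusted p under 0.05. Esr1, the targeted gene, averaged 41.0 ± 19.9 in ERα(−/−) and 140 ± 122 in ERα(+/+) stroma (SD, n = 9 each), a log2 change of −1.37 ± 0.56 (SE, limma, adjusted p = 1.00), and the genotypes overlapped. In ERα(−/−) stroma the Esr1 signals were 13.9, 49.9 and 81.8 after BPA and 25.7, 53.0 and 46.6 after EE2, against 26.3, 34.6 and 37.6 after vehicle. In ERα(+/+) stroma they were 114.5, 33.4 and 182.5 after BPA and 51.5, 20.3 and 213.4 after EE2, against 50.4, 201.3 and 396.7 after vehicle. All Esr1 signals in the epithelium lay between 1.1 and 142.0, with a mean of 28.7 ± 30.4 in ERα(−/−) and 48.3 ± 44.4 in ERα(+/+) glands (SD, n = 9 each). Where the Esr1 probes lie relative to the disrupted part of the gene is not known from the files, so a signal in ERα(−/−) glands goes against no label.

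The first comparison asked how the targets were distributed between the compartments of the gland. Pgr was bright in the ducts and dim around them, with a log2 change of −4.83 that became −3.43 when 16 was added to every value to damp dim signals, and Myb and Stc2 were also lower in stroma, whereas Xbp1 was higher in stroma. Ctsd was bright in both compartments, and Greb1, Cited1 and Tff1 were dim in both. Of the 8 genes, 3 were lower and 1 was higher in stroma by limma with the gland as a block, at an adjusted p under 0.05 over all 45101 probe sets. Of all probe sets, 15.9% were lower and 4.39% higher, and their median log2 change was −0.35, a shift that quantile normalization reduced to −0.01. In bulk captured tissue, fewer cells of a type and less RNA per cell cannot be told apart.

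Pgr signals in stroma ran from 0.4 to 93.5 with a median of 15.4, against 60.2 to 919.8 with a median of 392.15 in epithelium (n = 18 each). The stromal value was the lower in 18 of 18 glands, and the ranges met only at the lowest epithelial array, an ERα(−/−) vehicle gland with 60.2, and the highest stromal array, an ERα(−/−) BPA gland with 93.5. The log2 change of stroma against epithelium was −4.83 ± 0.47 (SE, 95% interval −5.83 to −3.83, limma, adjusted p = 7.85e-06). The other 2 Pgr probe sets gave −3.16 and −2.78, and both passed the same threshold. A signal of 100 or more was read in 0 of 18 stromal and 17 of 18 epithelial arrays, and in 15 of 18 stromal arrays Pgr read below the array's own median probe set.

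Myb signals in stroma ran from 132.0 to 1541.1 with a median of 316.9, against 1038.5 to 4337.0 with a median of 2014.1 in epithelium (n = 18 each). The ERα(+/+) vehicle stroma of replicate 2, with 1541.1, was the only stromal array within the epithelial range, and in this gland the stroma was higher than the epithelium (1328.3). In the other 17 glands the stroma was lower. The log2 change was −2.47 ± 0.23 (SE, 95% interval −2.96 to −1.98, limma, adjusted p = 5.60e-06). The other 2 Myb probe sets, without the x_at suffix, gave −4.34 and −2.66, both past the threshold.

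Stc2 signals in stroma ran from 11.6 to 1053.2 with a median of 238.15, against 78.6 to 1380.8 with a median of 707.5 in epithelium (n = 18 each). The ranges overlapped widely, but within glands the stroma was lower in 16 of 18. The log2 change was −1.16 ± 0.29 (SE, 95% interval −1.78 to −0.53, limma, adjusted p = 0.0119). This call depended on scale. It was lost after quantile normalization (−0.84, adjusted p = 0.0514) and after centring each array on its median (−0.75, adjusted p = 0.104). Of the other Stc2 probe sets, 1 passed with −1.36 and 1 did not with −0.94 (limma, adjusted p = 0.0650).

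Xbp1 was the member that ran the other way. Its signals in stroma ran from 443.7 to 1946.3 with a median of 899.7, against 118.0 to 1031.3 with a median of 582.25 in epithelium (n = 18 each), and the stroma was higher in 16 of 18 glands. The log2 change was 0.91 ± 0.22 (SE, 95% interval 0.44 to 1.38, limma, adjusted p = 0.00877), and the other 3 Xbp1 probe sets gave 0.93, 0.77 and 1.29, all past the threshold. By exposure, the Xbp1 medians of stroma and epithelium were 1150.9 and 698.25 after BPA, 684.5 and 587.85 after EE2, and 1102.6 and 236.9 after vehicle (n = 6 each).

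Ctsd had 252.0 to 1698.7 (median 929.1) in stroma and 196.6 to 1593.8 (median 815.6) in epithelium (n = 18 each), and the compartments overlapped almost completely. The change was 0.21 ± 0.19 (SE, 95% interval −0.21 to 0.62, limma, adjusted p = 0.488), and stroma was higher in 12 of 18 glands. After median centring it became 0.62 and passed (adjusted p = 0.0433). Greb1, Cited1 and Tff1 did not pass, with log2 changes of 0.97, −0.44 and −0.31 (limma, adjusted p of 0.402, 0.644 and 0.659), and each took the other sign under some alternative.

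**Figure D1:**
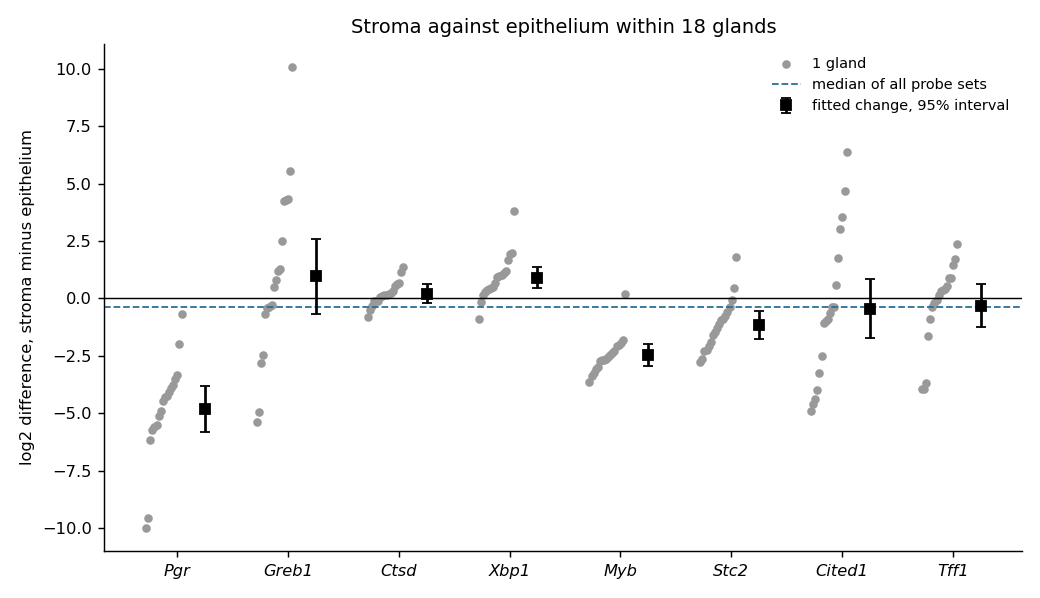
Log2 difference of stroma minus epithelium (vertical axis) for the 8 estrogen targets, with a grey point for each of 18 glands, a black square for the limma estimate with its 95% interval, and a dashed line at the median of all probe sets, −0.35. All 18 points of Pgr and 17 of 18 of Myb lie below 0, and 16 of 18 of Xbp1 lie above it.

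The genes whose signals followed the bright members most closely over the 36 arrays, among 8145 genes with a mean of at least 100, are given as a description. For Pgr they were Pdgfc, a growth factor (r = 0.914), Gabrp, a subunit of the GABA-A receptor (0.887), and Lgr5, a receptor of R-spondins on epithelial progenitors (0.874). Within a compartment the likeness of Pgr and Lgr5 was 0.330 in stroma and 0.832 in epithelium (n = 18 each). Myb was followed by Irx5, Stmn1 and Sox4 (r = 0.926, 0.921 and 0.915), of which Irx5 and Sox4 encode transcription factors and Stmn1 a protein that destabilizes microtubules. For Ctsd they were Etfb, Acadvl and Apmap (r = 0.810, 0.809 and 0.808), the first pair being mitochondrial proteins of fatty acid oxidation, and the values of each within stroma and within epithelium lay between 0.771 and 0.872. Xbp1 was followed by Hipk2, a nuclear kinase, Col6a2, a chain of collagen VI, and Htra1, a secreted protease (r = 0.845, 0.819 and 0.819). Stc2 was followed by Tut4, Tcof1 and Npy1r (r = 0.808, 0.807 and 0.787). All arrays of a compartment share its base level, and the array median itself correlated with Ctsd at 0.52, Stc2 at 0.46, Pgr at 0.35, Myb at 0.26 and Xbp1 at 0.09.

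**Figure D2:**
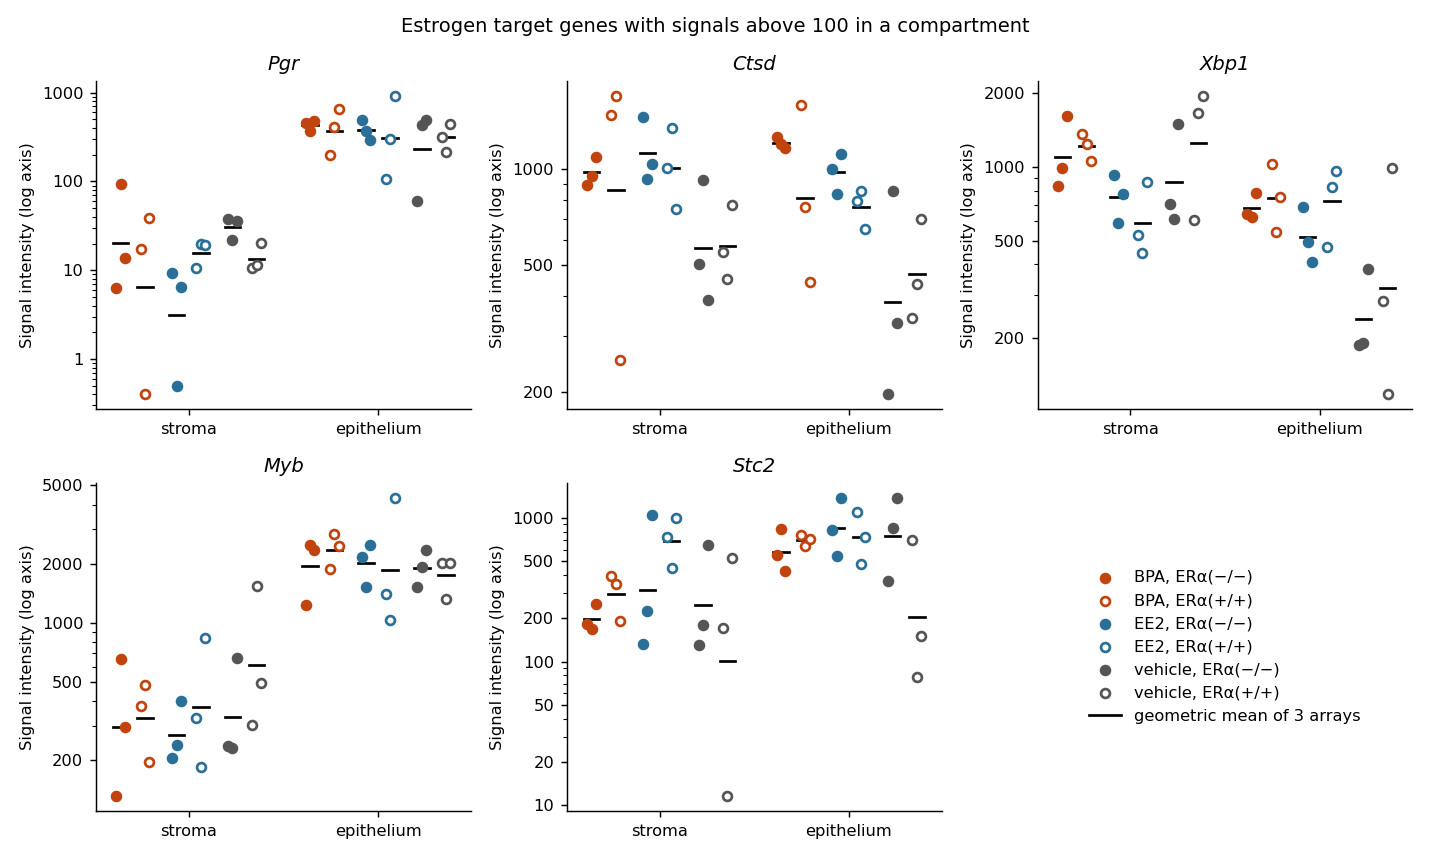
Signal intensity on a log axis of the 5 estrogen targets with a mean of at least 100, by compartment and, within it, by exposure (BPA orange, EE2 blue, vehicle grey) and genotype (filled ERα(−/−), open ERα(+/+)). Points are arrays and bars are geometric means of 3. Vehicle epithelium holds the 4 lowest Xbp1 signals, 118.0, 187.0, 190.2 and 283.6.

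The next question was whether BPA or EE2 changed the targets in the epithelium. Ctsd and Xbp1 had signals 2.34- and 2.58-fold the vehicle level after BPA and 2.04- and 2.20-fold after EE2, and Cited1, a dim gene, also had an unadjusted p under 0.05, but no member passed the adjusted threshold. From here on, p under 0.05 stands for the unadjusted limma p unless it is called adjusted. The doses differ (250 and 10 ng/kg per day) and both compounds were set against the same vehicle glands, so their values stand side by side with no contrast between them. A litter gave 1 fetus of each genotype by the methods, so the 6 arrays of an exposure may come from as few as 3 dams, and n = 6 counts glands rather than litters. After BPA, 3 of 8 members (Ctsd, Xbp1 and Cited1) had an unadjusted p under 0.05, beside 17.7% of all probe sets. After EE2 the same 3 members did, beside 8.88%. The median log2 change of the 8 members was 0.68 after BPA, beside 0.68 over all probe sets, and 0.68 after EE2, beside 0.40.

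Ctsd in epithelium had 442.3 to 1593.8 (median 1183.2) after BPA and 649.6 to 1116.6 (median 845.85) after EE2, against 196.6 to 857.5 (median 387.9) after vehicle (n = 6 each). The groups overlapped, since 1 vehicle gland reached 857.5 and 1 BPA gland stood at 442.3. The means were 1071 ± 407, 876 ± 163 and 476 ± 251 for BPA, EE2 and vehicle (SD, n = 6 each). The log2 change was 1.23 ± 0.42 for BPA (SE, 95% interval 0.34 to 2.11, limma, adjusted p = 0.216). For EE2 it was 1.03 ± 0.42 (SE, 95% interval 0.14 to 1.91, limma, adjusted p = 0.529).

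Xbp1 in epithelium had 541.1 to 1031.3 (median 698.25) after BPA and 408.0 to 963.2 (median 587.85) after EE2, against 118.0 to 985.0 (median 236.9) after vehicle (n = 6 each). All but 1 of the vehicle signals lay below every exposed signal, and the exception was the ERα(+/+) gland of replicate 3 with 985.0. This capture also had the highest summed fibroblast, adipocyte and endothelial markers of the vehicle epithelium, 30865, 25684 and 2754.9. The other vehicle captures reached at most 22160, 10329 and 601.8. Whether this bears on its Xbp1 signal was not tested. The log2 change was 1.37 ± 0.47 for BPA (SE, 95% interval 0.38 to 2.36, limma, adjusted p = 0.216) and 1.14 ± 0.47 for EE2 (SE, 95% interval 0.15 to 2.13, limma, adjusted p = 0.529). The other 3 Xbp1 probe sets were read in the same fits, and 2 of them had p under 0.05 after BPA (1.38 and 1.20) and 1 after EE2 (1.15). Without the dimmest array, the vehicle gland at 118.0, the Xbp1 changes were 1.01 for BPA and 0.78 for EE2 (limma, adjusted p of 0.401 and 0.821).

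Array brightness moved with these values. With each array centred on its median, Ctsd was 0.32 and Xbp1 0.46 above vehicle after BPA by limma (adjusted p of 0.812 and 0.741), and 0.49 and 0.61 after EE2 (adjusted p of 0.825 and 0.813). The summed markers of several other cell types also differed between exposures in the epithelial captures. Summed leukocyte markers ran from 3470.9 to 6739.2 after BPA and 2467.4 to 6808.4 after EE2, against 1135.8 to 5574.4 after vehicle, and summed endothelial markers from 208.1 to 3363.7 after BPA and 153.6 to 2667.2 after EE2, against 43.9 to 2754.9 after vehicle (n = 6 each). Summed fibroblast markers averaged 22681 ± 6238 after BPA and 19664 ± 5606 after EE2, against 15179 ± 9284 after vehicle, erythroid and blood progenitor markers 519 ± 221 after BPA and 338 ± 132 after EE2, against 359 ± 417 after vehicle, and the epithelium's own markers 16191 ± 3284 after BPA and 14675 ± 2345 after EE2, against 13684 ± 2406 after vehicle (SD, n = 6 each). After BPA, 4 of 7 endothelial, 3 of 9 fibroblast, 2 of 9 leukocyte, 1 of 6 erythroid and 0 of 12 epithelial markers were higher at an unadjusted p under 0.05 (limma), beside 17.3% of all probe sets. After EE2 the counts were 0 of 7, 1 of 9, 0 of 9, 1 of 6 and 0 of 12, beside 8.15%. These counts leave out the adipocyte, skeletal muscle and Schwann cell lists. Summed adipocyte markers averaged 20188 ± 11326 after BPA and 13891 ± 6486 after EE2, against 9739 ± 8489 after vehicle (SD, n = 6 each). In the same order, skeletal muscle markers averaged 2060 ± 4557, 2892 ± 6636 and 629 ± 631, and Schwann cell markers 3544 ± 940, 3411 ± 635 and 2940 ± 938. The skeletal muscle medians were instead 195.95 after BPA and 206.1 after EE2, against 352.75 after vehicle. The highest array stood at 11360 after BPA and 16437 after EE2. No marker value of these lists was listed at 0. The 3′ to 5′ ratio of the Gapdh control probe sets, which rises as RNA degrades, averaged 7.19 ± 1.61 after BPA, 7.99 ± 2.80 after EE2 and 10.6 ± 1.77 after vehicle (SD, n = 6 each). That of the b-actin control ran in the reverse order, with 1.07 ± 0.046 after BPA, 1.03 ± 0.067 after EE2 and 0.973 ± 0.123 after vehicle (SD, n = 6 each). Their part in the Ctsd and Xbp1 values was not tested.

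The remaining members had no p under 0.05 in epithelium over both genotypes. Myb had a log2 change of 0.23 after BPA (95% interval −0.61 to 1.06) and 0.08 after EE2 (−0.76 to 0.91), the narrowest intervals of the 8 genes. Pgr had one of 0.58 after BPA (95% interval −0.68 to 1.83) and 0.34 after EE2 (−0.91 to 1.59). Stc2 had one of 0.71 after BPA and 1.01 after EE2, with adjusted limma p of 0.444 and 0.582. For Pgr, the classical target, the epithelial signals were 198.7 to 649.5 (median 430.85) after BPA and 107.5 to 919.8 (median 336.7) after EE2, against 60.2 to 491.2 (median 373.85) after vehicle (n = 6 each), and the 3 exposures overlapped throughout.

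In the stroma no member had an unadjusted p under 0.05 after either compound, with 0 of 8 after BPA beside 4.54% of all probe sets and 0 of 8 after EE2 beside 4.51%. The median change of the 8 members was 0.65 after BPA, beside 0.16 over all probe sets, and −0.05 after EE2, beside 0.00. Ctsd had 252.0 to 1698.7 (median 1025) after BPA and 753.0 to 1455.0 (median 1024.4) after EE2, against 387.8 to 923.2 (median 526.9) after vehicle (n = 6 each). Its log2 changes were 0.68 ± 0.49 for BPA (SE) and 0.90 ± 0.49 for EE2 (SE), with adjusted limma p of 0.993 and 0.996, and 1 BPA array, the 252.0, lay below all vehicle arrays. Xbp1 had 832.7 to 1616.0 (median 1150.9) after BPA and 443.7 to 929.3 (median 684.5) after EE2, against 608.6 to 1946.3 (median 1102.6) after vehicle. Its changes were 0.15 ± 0.44 for BPA and −0.65 ± 0.44 for EE2 (SE, limma, adjusted p of 0.996 each). Stc2 averaged 255 ± 94.9 after BPA and 599 ± 392 after EE2, against 276 ± 248 after vehicle (SD, n = 6 each), with log2 changes of 0.62 and 1.56 (limma, adjusted p of 0.993 and 0.996).

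**Figure D3:**
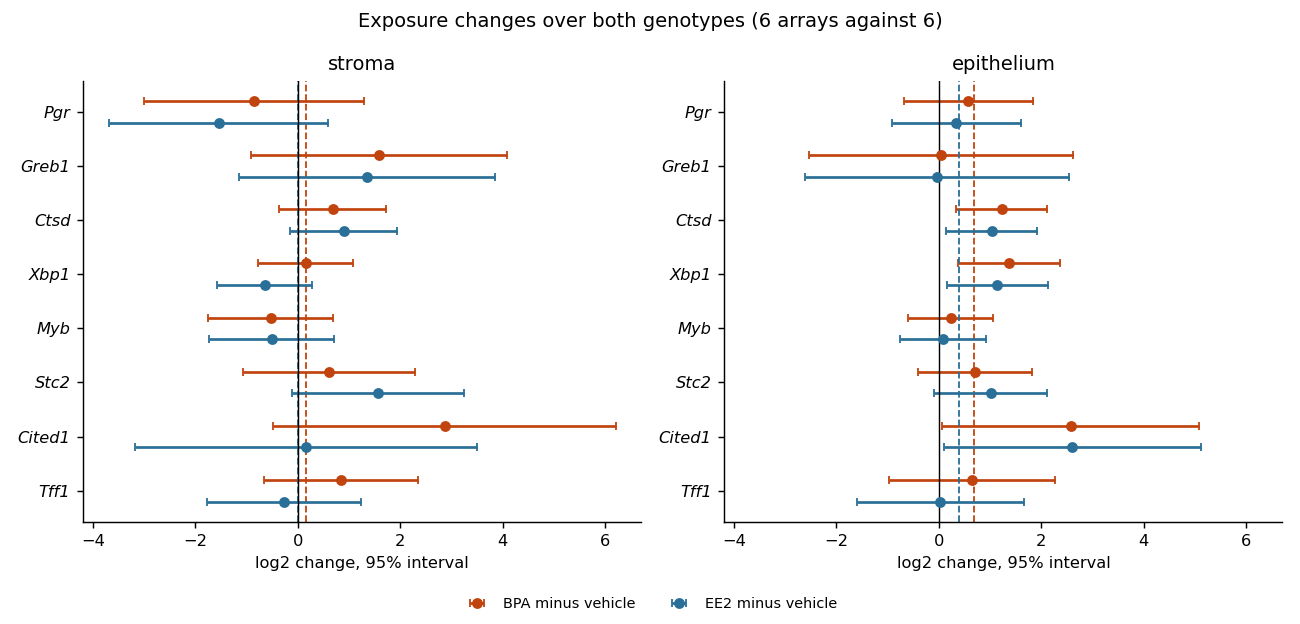
Log2 change against vehicle with its 95% interval (horizontal axis) for the 8 estrogen targets in stroma (left) and epithelium (right), BPA in orange and EE2 in blue, 6 arrays against 6. Dashed lines mark the median change of all probe sets, which was 0.68 for BPA and 0.40 for EE2 in epithelium. Only Ctsd, Xbp1 and Cited1 in epithelium have intervals that leave out 0.

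Whether an exposure acted differently in the compartments was tested with an interaction term over all 36 arrays. For Xbp1 the change after EE2 was 1.79 ± 0.54 log2 units lower in stroma than in epithelium (SE, limma, an interaction of −1.79, 95% interval −2.93 to −0.64, adjusted p = 0.529). The same term for BPA was −1.21 ± 0.54 (SE, 95% interval −2.36 to −0.07, limma, adjusted p = 0.635). Xbp1 was the only member of the 8 with an unadjusted p under 0.05 in either term, beside 7.49% of all probe sets for EE2 and 7.68% for BPA, and the median interaction over all probe sets was −0.38 for EE2 and −0.51 for BPA.

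Adjusted for all probe sets, no member passed in any of 22 comparisons, which covered exposures, genotypes and interactions. The share of all probe sets that passed was 0% in 18 of them, 0.00222% for ERα(−/−) against ERα(+/+) stroma, for BPA in ERα(−/−) epithelium and for EE2 in epithelium, and 0.00443% for EE2 in ERα(−/−) epithelium. Over these comparisons, 23 of 176 member changes (13.1%) had an unadjusted p under 0.05, beside 6.42% of all changes of all probe sets. The comparisons share arrays, so these counts are not independent.

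The study's question of dependence on ERα was addressed by comparing the exposures within each genotype. In ERα(−/−) epithelium the Ctsd and Xbp1 signals after BPA lay above those after vehicle with no overlap, but neither passed the adjusted threshold, and relative to the median of each array the groups overlapped. The share of all probe sets without overlap was not counted for either exposure. All probe sets together had a median log2 change of 0.74 after BPA and 0.60 after EE2. Ctsd had 1261.1, 1199.0 and 1167.5 after BPA and 1002.1, 834.2 and 1116.6 after EE2, against 196.6, 857.5 and 330.1 after vehicle. The 3 BPA arrays were close together and all above the vehicle arrays, while 1 EE2 array fell below the vehicle gland at 857.5. The changes were 1.66 ± 0.59 for BPA (SE, limma, adjusted p = 0.384) and 1.36 ± 0.59 for EE2 (SE, limma, adjusted p = 0.569). Xbp1 had 642.7, 623.4 and 785.3 after BPA and 683.9, 491.8 and 408.0 after EE2, against 187.0, 190.2 and 384.3 after vehicle, with neither exposed group overlapping vehicle in signal. Its changes were 1.51 ± 0.66 for BPA (SE, limma, adjusted p = 0.425) and 1.11 ± 0.66 for EE2 (SE, limma, adjusted p = 0.646). Thus 2 of 8 members after BPA, beside 11.2% of all probe sets, and 1 of 8 after EE2, beside 8.57%, had p under 0.05 in ERα(−/−) epithelium.

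Other measures separated on the same arrays. The array medians of ERα(−/−) epithelium were 50.1 to 66.8 after BPA and 42.7 to 64.0 after EE2, against 21.2 to 42.8 after vehicle (n = 3 each). As a multiple of its array's median, Ctsd was 17.5 to 25.2 after BPA and 15.7 to 26.2 after EE2, against 7.50 to 20 after vehicle, and Xbp1 was 10.1 to 12.8 after BPA and 9.56 to 10.7 after EE2, against 4.44 to 18.1 after vehicle, so on this scale every exposed group overlapped vehicle. With each array centred on its median, the log2 changes were 0.62 for Ctsd and 0.47 for Xbp1 after BPA and 0.51 and 0.27 after EE2 (limma, adjusted p of 0.824, 0.879, 0.920 and 0.957). Summed adipocyte markers were 22886 to 27354 after BPA and 14254 to 19584 after EE2, against 6875.2 to 10329 after vehicle, and endothelial markers 1620.1 to 2781.3 after BPA and 854.1 to 1535.5 after EE2, against 223.9 to 601.8 after vehicle, with no overlap of either exposure with vehicle. Their part in the Ctsd and Xbp1 values was not tested.

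In ERα(+/+) epithelium the members with p under 0.05 were Stc2 and Cited1 after BPA, 2 of 8 beside 8.44% of all probe sets, and Stc2 after EE2, 1 of 8 beside 6.15%. Stc2 had 762.0, 637.4 and 709.9 after BPA and 1104.0, 476.3 and 740.2 after EE2, against 705.1, 78.6 and 151.6 after vehicle. The vehicle gland at 705.1 lay within both exposed groups and the other 2 lay far below them. The changes were 1.79 ± 0.74 for BPA (SE, limma, adjusted p = 0.567) and 1.84 ± 0.74 for EE2 (SE, limma, adjusted p = 0.767). The array at 78.6 was the dimmest of all arrays, with a median of 10.9, and without it the changes were 1.10 and 1.16, with an unadjusted p over 0.05. Ctsd had 1593.8, 759.1 and 442.3 after BPA and 797.0, 857.5 and 649.6 after EE2, against 340.3, 435.5 and 698.4 after vehicle, with changes of 0.79 and 0.70 (limma, adjusted p of 0.680 and 0.890), and without the BPA gland at 1593.8 the BPA change was 0.30. Xbp1 had 1031.3, 541.1 and 753.8 after BPA and 472.0, 828.8 and 963.2 after EE2, against 283.6, 118.0 and 985.0 after vehicle, with changes of 1.22 and 1.17 (limma, adjusted p of 0.606 and 0.837). These Xbp1 changes were 0.50 and 0.45 without the vehicle gland at 118.0, and 2.03 and 1.98 without the vehicle gland at 985.0.

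The difference of these changes between genotypes was tested directly. In epithelium, 0 of 8 members had p under 0.05 for the interaction of BPA with genotype, beside 3.47% of all probe sets, and 0 of 8 for that of EE2, beside 6.01%. For Ctsd the interaction with BPA, ERα(−/−) minus ERα(+/+), was 0.87 (95% interval −0.90 to 2.65) and that with EE2 0.66 (−1.12 to 2.43). For Xbp1 these were 0.28 (95% interval −1.70 to 2.27) and −0.06 (−2.04 to 1.92). Intervals of this width include a change that is absent in 1 genotype as well as an equal change in both. The interaction of Stc2 with BPA was −2.16 ± 1.04 (SE, limma, adjusted p = 1.00).

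In ERα(+/+) stroma, 0 of 8 members had p under 0.05 after BPA, beside 3.83% of all probe sets, and 1 of 8, Stc2, after EE2, beside 4.42%. Stc2 there had 395.4, 345.8 and 190.6 after BPA and 730.9, 447.7 and 1003.5 after EE2, against 169.9, 11.6 and 522.5 after vehicle, and the EE2 arrays overlapped vehicle only at 522.5. The change after EE2 was 2.77 ± 1.12 (SE, limma, adjusted p = 0.999), and 1.21 without the vehicle array at 11.6, another of the 3 dimmest arrays. In ERα(−/−) stroma the Stc2 signals were 181.5, 168.1 and 251.1 after BPA and 131.9, 225.2 and 1053.2 after EE2, against 129.9, 179.4 and 642.2 after vehicle, with changes of −0.32 and 0.35, and the interaction with EE2 was −2.42 ± 1.59 (SE, limma, adjusted p = 1.00).

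In ERα(−/−) stroma, 1 of 8 members had p under 0.05 after EE2, beside 4.16% of all probe sets, and this was Pgr. Its signals were 9.3, 0.5 and 6.4 after EE2 and 6.3, 93.5 and 13.6 after BPA, against 37.4, 22.0 and 36.3 after vehicle. All EE2 arrays were below the vehicle arrays, and the change was −3.32 ± 1.43 (SE, limma, adjusted p = 1.00). The share of all probe sets that separated in this way was not counted. In ERα(+/+) stroma Pgr had 10.5, 19.8 and 19.1 after EE2 and 17.2, 0.4 and 38.9 after BPA, against 10.7, 11.4 and 20.1 after vehicle, and the interaction of EE2 with genotype was −3.56 ± 2.03 (SE, limma, adjusted p = 1.00), in a comparison where 0 of 8 members and 3.99% of all probe sets had p under 0.05. These stromal Pgr signals were mostly below the array median, in 15 of 18 arrays, and another Pgr probe set had an interaction of the opposite sign (3.21, limma, adjusted p = 1.00).

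**Figure D4:**
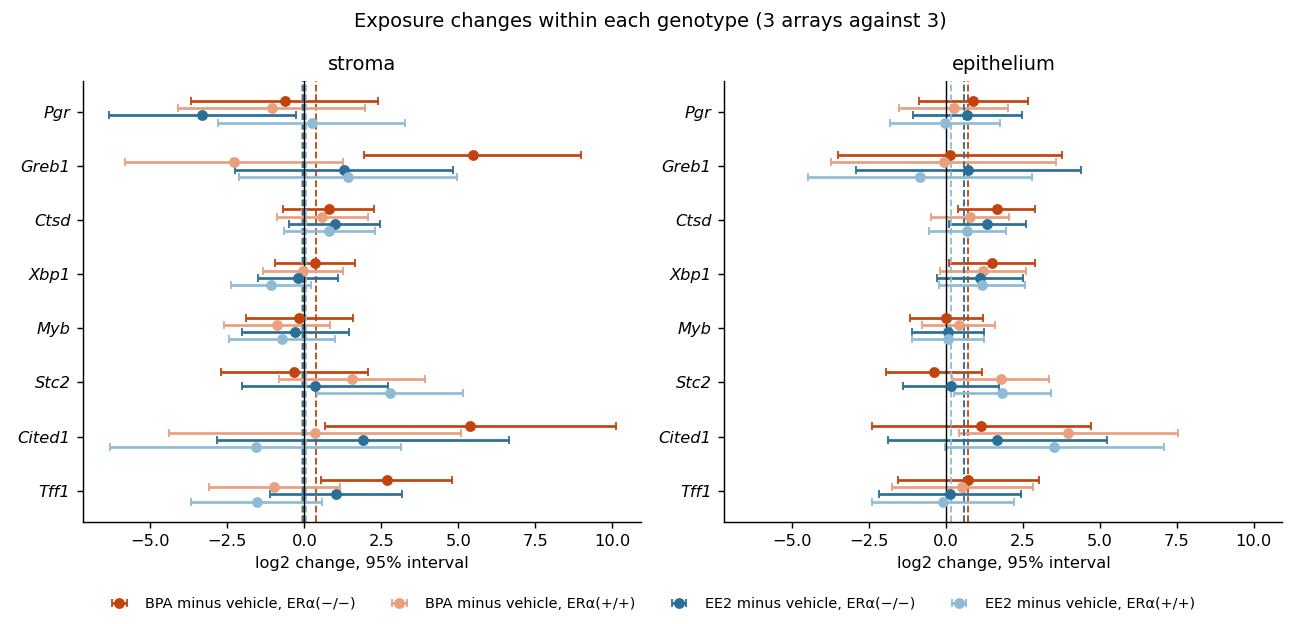
Log2 change against vehicle with its 95% interval within each genotype, 3 arrays against 3, for stroma (left) and epithelium (right). Darker points are ERα(−/−), lighter points ERα(+/+), BPA in orange and EE2 in blue, and dashed lines are the medians of all probe sets. In ERα(−/−) stroma after BPA the dim genes Greb1, Cited1 and Tff1 reach 5.46, 5.38 and 2.68.

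The dim members had their clearest values in ERα(−/−) stroma after BPA, where 3 of 8 members had p under 0.05, beside 4.64% of all probe sets. Greb1 had 17.5, 38.0 and 21.5 after BPA and 3.4, 0.4 and 1.8 after EE2, against 0.3, 0.8 and 0.7 after vehicle. Tff1 had 58.4, 90.6 and 58.6 after BPA and 55.7, 4.7 and 38.5 after EE2, against 9.0, 33.0 and 4.0 after vehicle. Cited1 had 193.2, 25.2 and 83.9 after BPA and 14.9, 14.2 and 1.4 after EE2, against 3.9, 2.4 and 0.6 after vehicle. In all 3 genes each BPA signal was above each vehicle signal, and the share of all probe sets without overlap was not counted. As a multiple of its array's median, Tff1 was 1.395 to 2.183 after BPA against 0.188 to 1.398 after vehicle, so these groups overlapped. Greb1 and Cited1 did not overlap on this scale, but the Greb1 BPA arrays all read below their own median, at 0.512 to 0.916 of it. The log2 changes after BPA were 5.46 ± 1.67 for Greb1, 2.68 ± 1.01 for Tff1 and 5.38 ± 2.23 for Cited1 (SE, limma, adjusted p = 0.985 each).

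The sizes of these changes rest on signals at the floor of the array. With 16 added to every value before logs, the Greb1 change was 1.30, and over the mean of its 4 probe sets it was 2.20. For another Greb1 probe set the value was 2.64 log2 units (limma, adjusted p = 0.985). The mean over the 4 lies below this value and below that of the probe set that stood for the gene. The remaining Greb1 probe sets therefore averaged less than this mean. The median change of all probe sets in this comparison was 0.39. In ERα(+/+) stroma Greb1 had 0.5, 0.2 and 6.9 after BPA, against 4.7, 4.3 and 4.0 after vehicle, and Tff1 had 26.1, 45.3 and 16, against 55.9, 37.9 and 67.9. The interaction of BPA with genotype was 7.75 ± 2.36 for Greb1 and 3.65 ± 1.42 for Tff1 (SE, limma, adjusted p = 1.00 each), which made 2 of 8 members beside 3.68% of all probe sets. A single stromal array, ERα(+/+) after EE2 replicate 2, held a Greb1 signal of 325.7, and all other Greb1 signals of the 36 arrays were between 0.2 and 38.0. This capture had the highest summed skeletal muscle markers of the stroma, 31534, against a stromal median of 260.45. In ERα(−/−) stroma, EE2 replicate 3 had 28036 with Greb1 at 1.8, and BPA replicate 1 had 21435 with Greb1 at 17.5. Whether muscle bears on the Greb1 signal was not tested.

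In epithelium Cited1 had 20.3, 62.3 and 4.7 after BPA and 11.2, 68.2 and 3.0 after EE2, against 3.0, 1.0 and 0.5 after vehicle in ERα(+/+) glands. In ERα(−/−) epithelium it had 16.3, 52.9 and 25.1 after BPA and 83.8, 18.4 and 41.5 after EE2, against 94.8, 50.8 and 0.4 after vehicle, so the exposures overlapped there. Over both genotypes the change was 2.57 ± 1.18 for BPA (SE, limma, adjusted p = 0.275) and 2.61 ± 1.18 for EE2 (SE, limma, adjusted p = 0.554), and with 16 added to the values it was 0.51 and 0.62. Tff1 was between 4.4 and 84.0 in all epithelial arrays, with changes of 0.64 after BPA and 0.03 after EE2, and Greb1 between 0.2 and 25, with changes of 0.04 and −0.04.

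**Figure D5:**
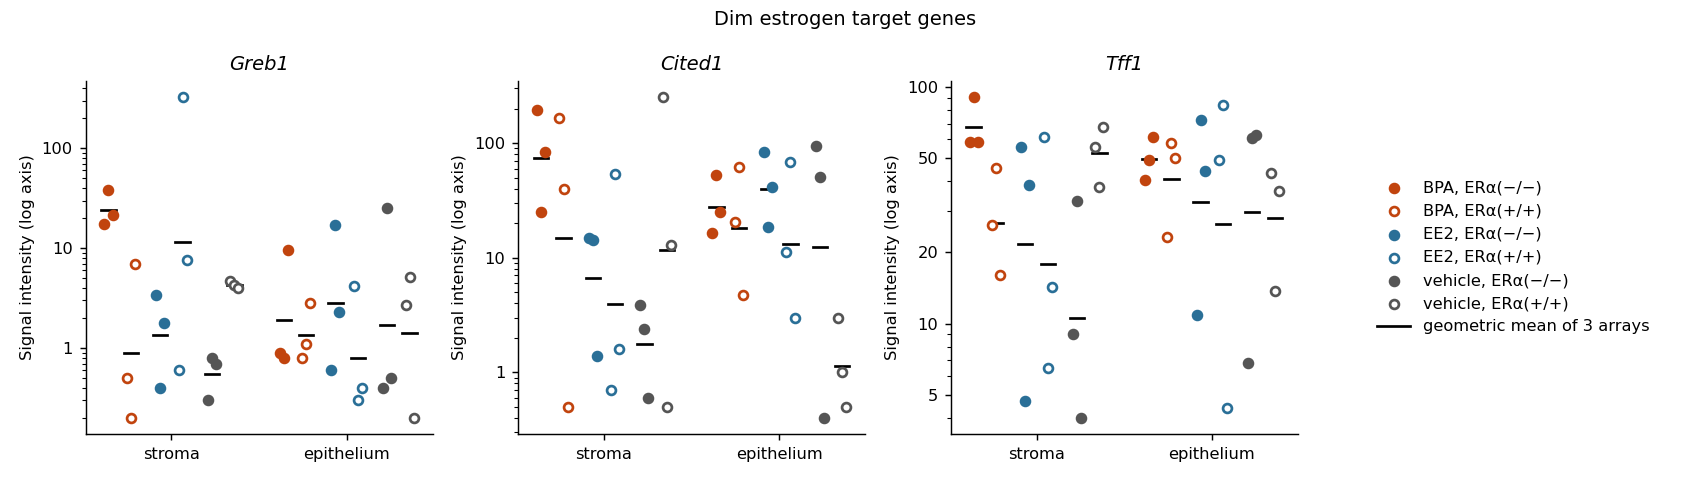
Signal intensity on a log axis of the 3 dim estrogen targets by compartment, exposure (BPA orange, EE2 blue, vehicle grey) and genotype (filled ERα(−/−), open ERα(+/+)). Points are arrays and bars are geometric means of 3. The ERα(−/−) BPA stroma is above ERα(−/−) vehicle stroma in all 3 panels, and the Greb1 array at 325.7 stands alone.

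The effect of losing ERα itself was read over all exposures, and no member passed the test between genotypes. In stroma 0 of 8 members had p under 0.05, beside 3.82% of all probe sets, and the changes of ERα(−/−) against ERα(+/+) ran from −0.50 for Myb to 0.16 for Pgr. In epithelium 0 of 8 did, beside 8.19%, and the changes ran from −0.35 for Xbp1 to 1.89 for Cited1 (limma, adjusted p = 0.622), beside a median of 0.38 over all probe sets. Pgr, the member tied most closely to ERα in the adult, averaged 383 ± 138 in ERα(−/−) and 396 ± 253 in ERα(+/+) epithelium (SD, n = 9 each), a change of 0.02 (95% interval −1.0 to 1.05). Its signals in ERα(−/−) epithelium ran from 60.2 to 495.2 (median 427.7), and in ERα(+/+) epithelium from 107.5 to 919.8 (median 320.0). The Myb change was −0.01 (95% interval −0.69 to 0.67) and the Ctsd change 0.21 (−0.51 to 0.93) in the same comparison.

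In vehicle glands alone, 1 of 8 members had p under 0.05 in stroma, beside 4.07% of all probe sets, and 1 of 8 in epithelium, beside 5.89%. The stromal gene was Tff1, with 9.0, 33.0 and 4.0 in ERα(−/−) against 55.9, 37.9 and 67.9 in ERα(+/+) glands, and no overlap (−2.31 ± 1.01, SE, limma, adjusted p = 0.999). In signal, Pgr and Greb1 also did not overlap there, Pgr with 37.4, 22.0 and 36.3 in ERα(−/−) against 10.7, 11.4 and 20.1 in ERα(+/+) stroma, and Greb1 with 0.3, 0.8 and 0.7 against 4.7, 4.3 and 4.0. As a multiple of the array's median, Pgr was 0.932 to 1.70 against 0.288 to 0.950 and overlapped, whereas Greb1 and Tff1 still did not. How many of all probe sets had no overlap was not counted. Their changes in Pgr and Greb1 were 1.20 and −2.97 (limma, adjusted p = 0.999 each). Over the mean of its 3 probe sets the Pgr change was −1.11, so the other Pgr probe sets on average ran the other way. This was the only 1 of 28 alternatives with the other direction. With single arrays left out the Pgr change stayed between 1.04 and 1.49. The methods' t-test, at an unadjusted threshold with a 2-fold minimum, passed Pgr and Greb1 and not Tff1 in this comparison, so the test decided which of these genes stood under 0.05. By the same test 822 of all 45101 probe sets passed, and 0 passed after adjustment. The epithelial gene was Stc2, with 363.1, 847.7 and 1380.6 in ERα(−/−) against 705.1, 78.6 and 151.6 in ERα(+/+) glands. The Stc2 groups overlapped, and the change was 1.89 ± 0.74 (SE, limma, adjusted p = 0.789). Without the array at 78.6 the change was 1.20.

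Other genes of the estrogen response were read in the same fits. Of 32 further estrogen-responsive genes measured, 6 were higher and 8 lower in stroma than in epithelium at an adjusted p under 0.05 by limma, beside 4.39% higher and 15.9% lower over all probe sets, and the list's median log2 change was −0.16. Those higher included Cxcl12, a chemokine (2.64), and Igf1, a growth factor (2.11), and those lower included Car12, a carbonic anhydrase (−3.32), and Krt19, an epithelial keratin (−2.87). Of 9 estrogen receptors and partners measured, Esr1 was higher in stroma (1.48) and 4 were lower, Gata3 (−5.48), Foxa1 (−3.59), Tfap2c (−1.84) and Ncoa3 (−0.84). Gata3, Foxa1 and Tfap2c encode transcription factors of the mammary epithelium, and Ncoa3 encodes a coactivator of the receptor. Of 16 lysosomal genes measured beside Ctsd, 3 were higher in stroma (Ctss 2.04, Hexa 1.60 and Ctsb 0.81) and 0 lower. Of 20 genes of the unfolded protein response, the pathway of Xbp1, 0 were higher and 2 lower (Sdf2l1 −1.10 and Pdia3 −0.63), and 2 of 20 lower is a smaller share than that of all probe sets.

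For the exposures, 0 genes of these 4 lists passed the adjusted threshold in either compartment. At an unadjusted p under 0.05 by limma in BPA-exposed epithelium, where 17.3% of all probe sets were higher, 5 of 32 estrogen-responsive genes were, among them Tnfsf11, which encodes RANKL (2.66), and Ckb, a brain creatine kinase (1.72). The counts were 6 of 9 receptors and partners, among them the coactivators Ncoa1 (1.44) and Ncoa2 (1.28) and Esr1, 3 of 16 lysosomal genes (Gusb 1.62, Ctsl 1.38 and Ctsb 1.08) and 1 of 20 genes of the unfolded protein response (Edem1 1.48). The list medians were 0.55, 1.28, 0.51 and 0.50, beside 0.68 over all probe sets. The Esr1 signals in epithelium were 31.7 to 142.0 after BPA, against 1.1 to 44.8 after vehicle, where 5 of 6 arrays read below their own median, so no fold is given for Esr1. After EE2 the counts were 2 of 32, 2 of 9, 1 of 16 (Ctsl 1.44) and 0 of 20, where 8.15% of all probe sets were higher, with medians of 0.37, 0.46, 0.18 and 0.30, beside 0.40. In stroma 0 genes of the 4 lists, with 32, 9, 16 and 20 genes measured, did so after BPA. After EE2 3 genes had an unadjusted p under 0.05 (limma), Bcl2 (2.45) and Ddit3 (1.53) higher and Gper1 (−1.63) lower. The shares of all probe sets in stroma, counted in either direction, were 4.54% after BPA and 4.51% after EE2.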

How the data were processed

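Signals of 36 arrays, 1 per sample, were analysed. Per the labels the values came from GCOS, and the methods describe RMA in Partek, but the intensity values deposited by the authors are linear, with array medians of 10.9 to 66.8 and 39 values of 0, and their scaling is not given in the sources used here. A single gene symbol was annotated to 34958 of 45101 probe sets, more than 1 to 932, and none to 9211. The members and gene lists were chosen with earlier results of these data known.

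Values were raised to at least 0.1, taken to log2 and fitted with limma 3.58.1 (statmod 1.5.0) in R 4.3.3, over the 6 groups of a compartment, or over all 12 groups with the gland as a block. P-values were adjusted by Benjamini-Hochberg over all probe sets, called at 0.05, and SE and 95% intervals are limma's. Arrays of a group come from separate litters, but a litter gave 1 fetus of each genotype, so arrays of both genotypes under an exposure can share a dam. The methods took both compartments from 1 gland, which gives the pairing. Residuals of a gland's compartments correlated above 0.1 in 7 of 18 pairs (mean 0.0774, against −0.0384 for other pairs), and 14 of 18 correlated best with their own partner. All 8 members are named, with Esr1, the 3 most similar genes of each bright member and up to 4 called genes of each list. Alternatives covered an offset of 16, quantile normalization, median centring, a signal filter, array weights, an intensity trend, all probe sets of a gene, blocks, the groups fitted, each array left out and the methods' test. Leaving out the 3 dimmest arrays together was chosen after seeing the data. The fit was tested on simulated data. Promoters and positions are from RefSeq on GRCm38.p6, matched by symbol for 7 and 8 of the 8 genes.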

Additional observations from a re-analysis of the deposited data

Results flagged for a closer look

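In 3 of 48 sets of 6 arrays (a gene in a compartment under an exposure), the lowest array stood apart from the other 5 by a gap that was large for the range of the set. Chance gives about 1 in 20 such sets. The Ctsd signal of BPA-exposed ERα(+/+) stroma replicate 3 was 252.0, against 894.5 to 1698.7 on the other arrays of BPA-exposed stroma, and the Cited1 signal of the same array was 0.5, against 25.2 to 193.2. This array is 1 of the 3 dimmest, with a median signal of 14.6. The Pgr signal of EE2-exposed ERα(−/−) stroma replicate 2 was 0.5, against 6.4 to 19.8 on the other arrays of EE2-exposed stroma. None of 48 member interactions passed the adjusted threshold by limma, and 4 had an unadjusted p under 0.05 (Greb1 and Tff1 for BPA by genotype in stroma, Xbp1 for BPA and for EE2 by compartment).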

How the results depend on the processing

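Over 5526 fits under alternatives, 3 changed the call of a member, all for stroma against epithelium. Stc2 was not called after quantile normalization (−0.84, adjusted p = 0.0514) or median centring (−0.75, adjusted p = 0.104), and Ctsd was called after median centring (0.62, adjusted p = 0.0433). The count of called members was 3 or 4 under every alternative, and 4 whichever array was left out. No member was called in the 22 other comparisons under any alternative. Of the 184 changes, 97 took the other direction under some alternative, and none of the 23 with an unadjusted p under 0.05 among exposures, genotypes and interactions did. These 23 were picked for small p-values on the same arrays, so their kept direction is no separate evidence for them. With the replicate number as a block within a compartment no call changed, and the pairing left the Ctsd change after BPA in epithelium at 1.23 (limma, adjusted p = 0.231). Without the block on the gland, 4 members were called for stroma against epithelium. Quantile normalization gave BPA changes of 0.84 for Ctsd and 0.86 for Xbp1 in epithelium, and median centring gave 0.32 and 0.46. With single arrays left out these changes ran from 0.98 to 1.52 and from 1.01 to 1.77. The scaling of the deposited values is unknown, signals near the floor carry little information, and 3 arrays a group limit every interval.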
